A study of Mus musculus with 13 samples.

Results

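Sox9 peaks of rib chondrocytes that the submitters placed in their Class I, and that had no Sox9 peak of nasal septum chondrocytes overlapping them or within 1000 bp edge to edge, numbered 1228. They made up 18.1% of the 6794 Class I peaks (95% exact binomial interval 17.2% to 19.0%) and 4.44% of the 27656 rib peaks. They are called rib-only Class I peaks here, and the other 5566 Class I peaks are called shared. They were selected on the listed positions of Sox9 peaks in both tissues and on the submitters' class, so absence means that no nasal peak was listed, not that Sox9 was shown to be missing there. By the same rule, 60.5% of the 20862 Class II peaks and 50.1% of all rib peaks had no nasal peak nearby. The sources used here do not give the rule behind the classes.

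Both lists come from ChIP-seq with the same Sox9 antibody on enzyme-digested chondrocytes of untreated wild-type ICR mice, an outbred strain. The rib cells were taken at postnatal day 1 and the nasal septum cells at embryonic day 17.5, so place in the body and stage differ together. There was 1 Sox9 library for each tissue, drawn from 13 libraries in all. The labels do not say how many animals gave the cells. The files give peak positions without height, fold or significance, and the read depth behind them is unknown. Cartilage identity could not be checked against marker genes, since positions were all that was analysed.

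Sox9 is a transcription factor of the SRY-related HMG-box family, which binds the minor groove of DNA and bends it. It is needed for cartilage to form, and in chondrocytes it switches on the genes of the cartilage matrix together with its relatives Sox5 and Sox6. Rib cartilage develops from the somites of the trunk, whereas the nasal septum develops largely from cranial neural crest, so the cells compared here reach a similar fate from different origins. The title of the series asks how Sox9 acts through distinct regulatory programmes, and the rib-only peaks are those sites of Class I that the nasal list does not repeat.

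Peaks are not replicates of a condition, so no test was made between rib-only and shared peaks. Intervals are 95% exact binomial intervals, order-statistic intervals for medians and Newcombe intervals for differences. They cover counting error alone, and they are too narrow where neighbouring peaks share a locus. Sequences of the peaks, nearby genes and SOX motifs were not analysed here, because no mm9 genome or annotation was used. All positions are mm9, counted from 1.

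Some Class I peaks lay close to the limit of 1000 bp on either side of it. The rib-only peak nearest to a nasal peak lay 1009 bp from it, on chromosome 6 at 86474924 to 86475303. The next lay at 1011 bp on chromosome 3, 148653756 to 148653881, and at 1014 bp on chromosome 14, 35124653 to 35124760. Just outside the rule, shared peaks lay 998, 996 and 988 bp from a nasal peak, on chromosome 14 at 34902329 to 34902499, chromosome 2 at 154482516 to 154482688 and chromosome 11 at 29146075 to 29146297. Those just outside the rule were among the 889 Class I peaks, 13.1%, that had a nasal peak within 1000 bp without sharing a base with it. All of these counted as shared.

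Most rib-only Class I peaks lay far beyond that limit. Their median distance to the nearest nasal peak was 22.4 kb (20.2 to 24.6 kb), and 25% of them lay within 6.51 kb. A nasal peak lay more than 5 kb away for 961 of them (78.3%, 75.8% to 80.5%), more than 10 kb away for 840 (68.4%) and more than 100 kb away for 181 (14.7%, 12.8% to 16.8%). In 17 cases, 1.38%, the nearest nasal peak was more than 1000 kb away. These include all 11 peaks of a single run of 5.59 kb on chromosome 17, described below. Class II peaks absent from the nasal list stood somewhat farther from nasal peaks, with a median of 27.2 kb, and 85.5% of them (84.9% to 86.1%) lay beyond 5 kb. These distances describe what the rule selected and carry no test.

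**Figure D1:**
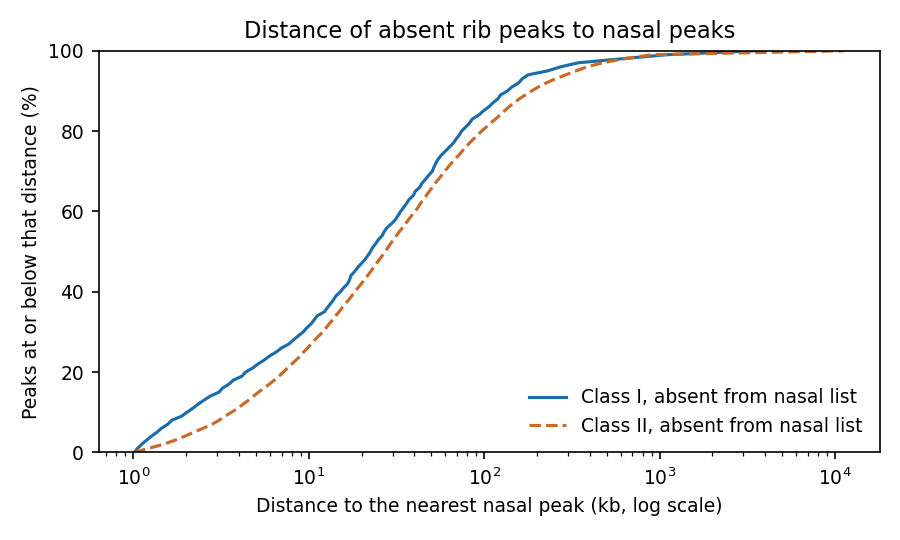
Cumulative share of rib peaks with no nasal peak within 1000 bp (vertical axis, percent) against their distance to the nearest nasal peak (horizontal axis, kb, log scale), for Class I (solid line) and Class II (dashed line). The Class I line lies to the left of the Class II line at each percent from 1% to 98%, with medians of 22.4 and 27.2 kb. The order turns at 99%, with 1087 and 898 kb, where the Class I value falls within the chromosome 17 run of 11 peaks at 1086 to 1091 kb.

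The 4 farthest of them lay 869 to 3517 kb from any other Class I peak. On chromosome X, the peak at 39505338 to 39505557 stood 3517 kb from any nasal peak and 3517 kb from any other Class I peak, with a Class II peak 118 kb away. On chromosome 15, the peak at 22965635 to 22965845 stood 2408 kb from a nasal, 2586 kb from a Class I and 2406 kb from a Class II peak. On chromosome X, 154036630 to 154036786 stood 1658 kb from both a nasal and a Class I peak, with a Class II peak 147 kb away. On chromosome 5, 18733918 to 18734079 stood 1473 kb from a nasal, 869 kb from a Class I and 1000 kb from a Class II peak. These 4 peaks were listed late, at places 27276, 26509, 20655 and 21508 of the rib list. The fifth by distance belonged to the run of peaks on chromosome 17 described below, whose 11 peaks stood 1086 to 1091 kb from a nasal peak. In all, 162 rib-only Class I peaks (13.2%, 11.3% to 15.2%) had no other rib or nasal peak within 50 kb, and 67 (5.46%) had none within 100 kb.

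The nasal peak nearest to a rib-only Class I peak had in most cases a listed rib peak within 1000 bp. It had no rib peak within 1000 bp in 281 of 1228 cases, or 22.9% (20.6% to 25.3%), against 21.9% of all 17440 nasal peaks. The share was 18.0% (13.6% to 23.1%) where the nasal peak lay 1 to 5 kb away and 24.9% (20.6% to 29.6%) where it lay more than 50 kb away. These separate intervals overlap, which does not show that the shares are equal, and no interval of their difference was computed. Nasal-only sites thus stood nearest to rib-only Class I peaks about as often as they occur in the nasal list.

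Rib-only Class I peaks were gathered in the later part of the rib list. Their median place was 20888.5 (20253 to 21426) of 27656, against 15939.5 (15642 to 16259) for shared Class I peaks. Of the rib-only peaks, 81.2% (78.9% to 83.3%) stood in the second 50% of the list, against 58.8% (57.5% to 60.1%) of the shared ones. With the list divided by place into 10 bins, rib-only peaks were 16 of the 221 Class I peaks in bin 1, or 7.24% (4.19% to 11.5%). They were 5.22% in bin 2, 10.6% in bin 4, 22.1% in bin 7 and 30.2% (27.4% to 33.1%) in bin 10, where they numbered 307. Class II peaks without a nasal peak made up 15.8% in bin 1 and 83.8% in bin 10. The fall of nasal overlap along the list was known before and is not independent support for anything here.

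**Figure D2:**
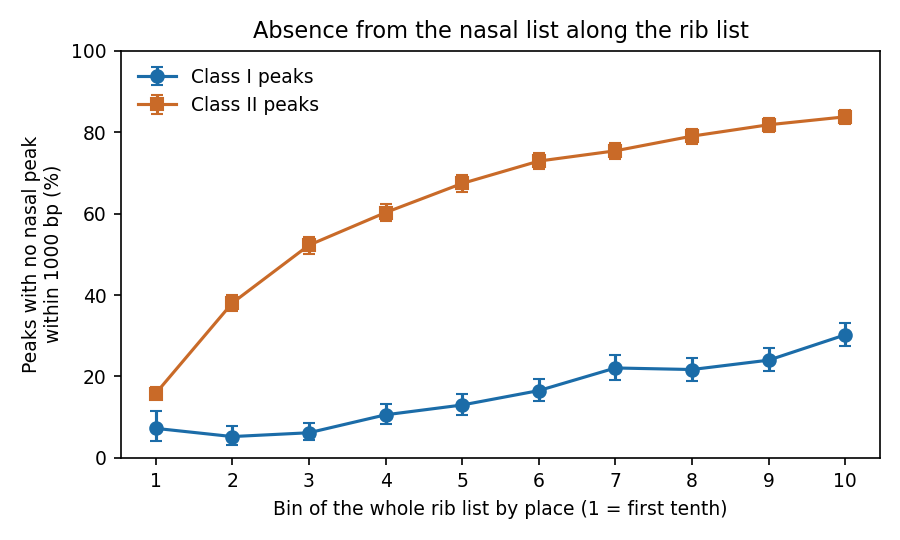
Share of Class I (circles) and Class II (squares) rib peaks with no nasal peak within 1000 bp (vertical axis, percent) in 10 bins of the rib list by place (horizontal axis), with 95% exact binomial intervals as bars. Class I goes from 7.24% in bin 1 to 30.2% in bin 10 and stays below Class II in every bin.

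The sources used here do not say by what the rib list is ordered. Consecutive peaks of the list stood on the same chromosome in 5.82% of cases in bin 1, 17.6% in bin 7 and 12.3% in bin 10. Widths were alike in rib-only and shared peaks. The rib-only median width was 174 bp (170 to 179), with quartiles of 127 and 233 bp, against 178 bp (175 to 180), with quartiles of 127 and 239 bp, in shared peaks. Peaks under 50 bp made up 4.72% of rib-only and 4.98% of shared Class I peaks, and peaks over 300 bp were 136 of 1228 and 667 of 5566.

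The widest rib-only peaks measured 495 bp on chromosome 6 at 108778233 to 108778727, 492 bp on chromosome 19 at 57434838 to 57435329 and 486 bp on chromosome 7 at 35697412 to 35697897. The narrowest measured 5 bp on chromosome 16 at 44139386 to 44139390, 6 bp on chromosome 16 at 11203423 to 11203428 and 7 bp on chromosome 5 at 140865470 to 140865476. No peak of Class I exceeded 498 bp. Peaks of a few bp are shorter than the smallest sheared fragments of 100 bp that the labels' protocols give, and rib-only peaks under 50 bp numbered 58.

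The earliest places held few rib-only peaks, and 5 of the first 10 belonged to a single run on chromosome 17. The earliest of all, at place 319, was a peak of 112 bp on chromosome 1 at 197067806 to 197067917. It stood 110.0 kb from the nearest nasal peak and 157 kb from a Class II peak, and 0 rib or nasal peaks ended beyond it on the chromosome. At place 930, the peak on chromosome 14 at 26353840 to 26353961 had a nasal peak 6.80 kb and a Class II peak 5.22 kb away. At place 1506, the peak on chromosome 18 at 58717713 to 58717915 had a nasal peak 2.28 kb, a Class I peak 2.26 kb and a Class II peak 3.98 kb away. These last sites lay in neighbourhoods that the nasal list did reach.

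At place 2085, the peak on chromosome 13 at 55702177 to 55702314 had another Class I peak 537 bp away and its nearest nasal peak at 22.0 kb. At place 2210, the peak on chromosome 7 at 147019639 to 147019766 had another Class I peak 374 bp away and its nearest nasal peak at 115 kb. The other 5 of the first 10 stood at places 554, 1257, 1417, 1442 and 1570, all in the chromosome 17 run.

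That run held 11 Class I peaks within 5.59 kb, from 39979975 to 39985565 on chromosome 17, and all 11 were rib-only. No window of 100 kb held more rib-only peaks. The widest peak measured 467 bp. The peaks covered 48.4% of the span, and 3 adjacent pairs shared bases, by 108, 234 and 256 bp. Their places ran from 554 to 9132. Within the run, 7 of the 11 stood in bin 1 of the rib list and 3 in bin 2. The nearest nasal peak lay 1086 kb away and the nearest Class II peak 2639 kb away, and no other peak of any list lay within 50 kb of the run. The run thus combined early places with an empty surrounding. The rule for choosing the peaks names this block as multi-copy, and whether reads from repeated sequence fell in it was not tested.

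**Figure D3:**
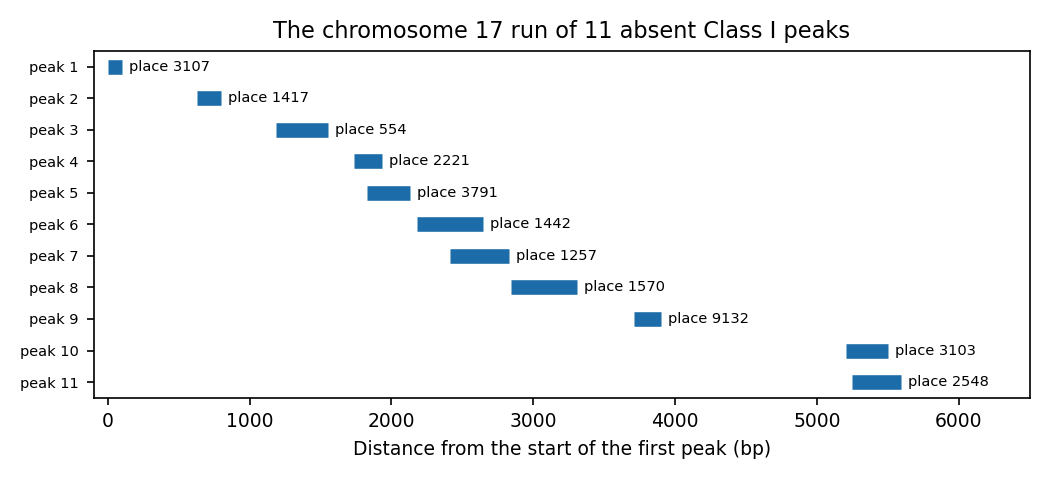
The 11 rib-only Class I peaks of the chromosome 17 run, drawn to scale as bars against the distance from the start of the first peak (horizontal axis, bp), one bar per peak, each with its place in the rib list. The bars form a chain of 9 peaks, with 2 peaks that share bases 1308 bp farther on.

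Leaving the run out changed the top of the list more than the whole. Rib-only peaks were then 9 of 214 Class I peaks in bin 1, or 4.21% (1.94% to 7.83%), and 4.51% in bin 2. The median distance of the bin 1 members to a nasal peak was 290 kb with the run and 97.9 kb without it. Over all Class I peaks the rib-only share was 17.9% without the run.

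Tight runs of rib-only peaks were otherwise short. Joined across gaps of at most 1000 bp, the 1228 peaks formed 1143 sites, of which 1074 were single peaks and 60 were pairs. The pairs had a median gap of 322 bp, and 6 of them shared bases. Runs of at least 3 numbered 9 and held 34 peaks, or 2.77% of the rib-only set. The longest held 9 peaks, since a gap of 1308 bp splits the chromosome 17 run under this joining. Shared Class I peaks, joined in the same way, gave 91 runs of at least 3 with 306 peaks, or 5.50%, the longest of 8 peaks. These shares are not a like comparison, since each set was joined to itself alone and the shared set is larger, at 5566 peaks. The rule can also label close neighbours together through a single nasal peak.

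The second largest run lay on chromosome 1 at 71694426 to 71697108 and held 4 peaks of 248, 224, 346 and 127 bp, at places 25249, 20993, 15380 and 19430. Their nasal distances decreased along the run, at 4.87, 3.70, 3.10 and 2.44 kb, so a nasal peak stood just past its end. In the window of 100 kb that held it, 71600001 to 71700000, all 4 Class I peaks and all 8 Class II peaks were without a nasal peak within 1000 bp, and 1 nasal peak was listed. The run was the end of 5 consecutive rib-only Class I peaks that began at 71149560.

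The remaining runs held 3 peaks each. On chromosome 1 at 136302242 to 136303351, 3 peaks covered 63.8% of 1.11 kb, and a nasal peak lay 43.5 kb away. The window 136300001 to 136400000 also held a rib-only peak at 136311760 to 136311855, among 5 Class I peaks, beside 3 nasal peaks. On chromosome 13 at 16103145 to 16104560, 3 peaks were followed by another at 16106042 to 16106233, and the nearest nasal peak was 3.29 kb away. These 4 were all the Class I peaks of the window 16100001 to 16200000, which held 2 Class II peaks, both without a nasal peak within 1000 bp, and 0 nasal peaks. On chromosome 8 at 28370620 to 28371856, 3 late-listed peaks at places 21020 to 26782 stood 131 kb from a nasal peak and 82.2 kb from a Class II peak. The runs on chromosome 6 at 136821913 to 136823513, chromosome 9 at 59506270 to 59507751 and chromosome 11 at 101488524 to 101489276 had a nasal peak at 1.13, 1.65 and 14.1 kb.

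The run on chromosome X, 166430836 to 166432980, differed from the chromosome 17 run in its surroundings. Its 3 peaks were 380 to 465 bp wide and stood at places 4216 to 14366. Within 50 kb of it lay 15 Class I peaks, 12 of them shared, and 12 nasal peaks, and the nearest nasal peak was 1.27 kb away. Here the nasal list left out part of a chain that it otherwise repeated.

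Dense regions of Class I were sorted by whether the nasal list left them out as a whole. Over all Class I peaks, 18.1% were rib-only. The number of windows that this share alone would give was not computed, so the counts are not read as few or many. Of 624 windows of 100 kb with at least 3 Class I peaks, 12 held rib-only peaks alone, 395 held none and 217 held both kinds. With at least 5 Class I peaks, 2 of 104 windows held rib-only peaks alone. These were the chromosome 17 window, with the block that the rule names as multi-copy, and the window on chromosome 6 at 52100001 to 52200000.

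On chromosome 6, a stretch without a nasal peak held rib peaks of both classes. In 209 kb, from 51962666 to 52171794, it held 6 consecutive rib-only Class I peaks and 7 of Class II. The nasal peaks flanking it lay 24.1 and 418 kb outside. Absence of a nasal peak within 1000 bp therefore follows for all 7 by construction and is not a separate result. The stretch was singled out after its values were seen. The Class I peaks began at 51962666 to 51963039, at place 10462, 24.1 kb from a nasal peak. They went on at 52110195 to 52110354 with place 18502, and at 52154321 to 52154478 with place 3230. The last 3 followed at 52162837 to 52163018 with place 26383, at 52163286 to 52163563 with place 11731 and at 52171581 to 52171794 with place 18325. From 52110195 on, nasal distances ran from 172 to 233 kb.

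The 7 Class II peaks of that stretch stood 75.7 to 213 kb from a nasal peak, at places 8469 to 22952. The next nasal peak after the stretch lay 418 kb beyond its end. Unlike the chromosome 17 run, this stretch held peaks of both classes, spaced over many kb, and no pair of its Class I peaks in the window shared bases. Genes of the region are not named here, as an mm9 annotation was not used.

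Consecutive Class I peaks along a chromosome that were all rib-only formed 17 series of at least 4, with 80 peaks, and 6 of the 17 had no nasal peak in their span. Apart from those described, a series of 5 lay within 3.72 kb on chromosome 7 at 86198130 to 86201847, at places 10800 to 27184, 9.07 to 12.7 kb from a nasal peak.

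To see whether rib-only Class I peaks kept other company in rib, the peaks around them were counted. Within 10 kb, a Class II peak lay beside 350 rib-only Class I peaks, or 28.5% (26.0% to 31.1%), and beside 1275 shared ones, or 22.9% (21.8% to 24.0%), where 23.9% of all Class I peaks had such a neighbour. The difference was 5.59 percentage points (2.90 to 8.40). It was 6.93 points when shared peaks were weighted to the same bins of the rib list, and at 1 kb the shares were 2.36% and 2.43%, a difference of -0.0639 points (-0.900 to 1.01). At 25 kb the shares were 48.2% and 42.5%. The rule can act on this comparison too, since a nasal peak within 1000 bp of a Class II neighbour can also make the Class I peak shared. Leaving out Class I peaks with a close Class II neighbour was not tried. No rib-only Class I peak shared a base with a Class II peak, and a Class II peak came no nearer than 106 bp.

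Class I neighbours showed the opposite order. Another Class I peak stood within 10 kb of 32.2% (29.6% to 34.9%) of rib-only and 40.9% (39.6% to 42.2%) of shared Class I peaks, where 39.3% of all Class I peaks had such a neighbour. Within 1 kb the shares were 13.4% and 27.7%, within 25 kb 42.5% and 51.5%, and within 50 kb 54.6% and 64.2%. Among peaks with no Class I peak within 1 kb, 21.7% of rib-only against 18.2% of shared peaks had a Class I neighbour 1 to 10 kb away (difference 3.52 points, 0.850 to 6.35). Which peaks have a Class I neighbour does not depend on the nasal list, but the label of a peak does. A single nasal peak, at most 498 bp wide, can lie within 1000 bp of rib peaks that stand more than 2 kb apart. The rule can therefore still make a peak shared through a nasal peak beside a neighbour beyond 1 kb. For peaks with no Class I peak within 3 kb, a single nasal peak cannot lie that close to both. Of these, 11.5% of rib-only and 10.2% of shared peaks had a Class I neighbour 3 to 10 kb away. The interval of that difference held 0 (1.25 points, -0.891 to 3.64).

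**Figure D4:**
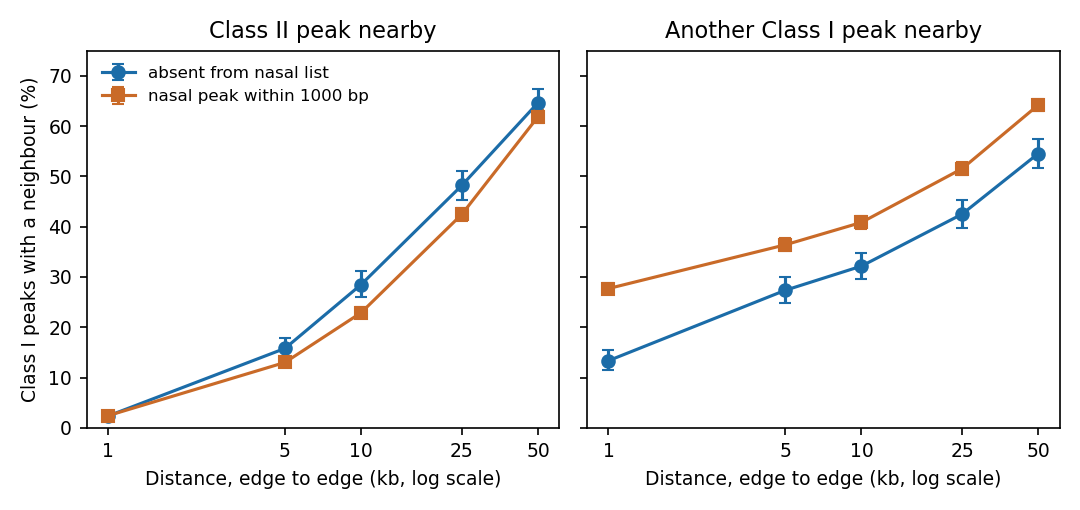
Share of Class I peaks (vertical axis, percent) with a Class II peak (left panel) or another Class I peak (right panel) within 1, 5, 10, 25 or 50 kb edge to edge (horizontal axis, log scale), for rib-only (circles) and shared (squares) peaks, with 95% exact binomial intervals as bars. Rib-only peaks lie above shared peaks on the left from 5 kb on and below them on the right at each distance, with 28.5% against 22.9% and 32.2% against 40.9% at 10 kb.

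Rib-only Class I peaks were often next to each other. The nearest Class I peak was itself rib-only for 407 of 1228, or 33.1% (30.5% to 35.9%), and for 13.5% (12.6% to 14.4%) of shared peaks, where 18.1% of all Class I peaks were rib-only. For the 164 rib-only peaks with a Class I peak within 1 kb, the nearest was rib-only in 152 cases, a count that the rule raises by construction. Where the nearest Class I peak was 1 to 10 kb away, it was rib-only for 26.4% (20.8% to 32.6%) of rib-only and 19.7% (16.9% to 22.7%) of shared peaks. At 10 to 100 kb the shares were 21.0% and 16.0%, and beyond 100 kb 26.0% and 21.1%. The rule can still act in the first of these bands, as above. In each of these 3 bands beyond 1 kb the share was higher for rib-only peaks, while the separate intervals overlapped. Such overlap does not show that the shares are equal, and no interval of these differences was computed.

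The Class II peaks around rib-only Class I peaks were then set against those around shared ones. Of Class II peaks within 10 kb of rib-only Class I peaks alone, 220 of 355, or 62.0% (56.7% to 67.0%), had no nasal peak within 1000 bp, against 578 of 1210, or 47.8% (44.9% to 50.6%), near shared Class I peaks alone. The share over all Class II peaks was 60.5%, which the interval near rib-only peaks holds and the interval near shared peaks does not. Weighted to the same bins of the rib list, the value near shared peaks was 47.7%, and in 10 of 10 bins it was below the value near rib-only peaks. The nasal peak that makes a Class I peak shared can also lie beside its Class II neighbour. With Class II peaks 3 to 10 kb from any Class I peak, where no nasal peak lies within 1000 bp of both, the shares were 61.4% (55.3% to 67.3%) and 53.9% (50.4% to 57.2%), and the difference was 7.57 points (0.747 to 14.1) rather than 14.2.

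Rib-only Class I peaks were unevenly spread over the chromosomes. They were 82 of 266 Class I peaks on chromosome 13, or 30.8% (25.3% to 36.8%), and 30 of 93 on chromosome X, or 32.3% (22.9% to 42.7%). The lowest shares were 14.0% (10.5% to 18.1%) on chromosome 8 with 48 of 344, and 14.1% (11.3% to 17.3%) on chromosome 7 with 78 of 552. Against 18.1% over all Class I peaks, the intervals of chromosomes 13, X and 6 lay above, that of chromosome 6 at 22.7% (18.5% to 27.3%) only just. Those of chromosome 7, of chromosome 11, at 14.7%, and of chromosome 8 lay below. For chromosome 8 this was only just so, with an upper end of 18.071% against 18.075% over all Class I peaks. On each other chromosome the interval held 18.1%.

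The counts were also set against those that places in the rib list alone would give, with the rib-only share of each bin applied to the peaks of a chromosome. On chromosome 13 this gave 50.9 rib-only peaks, where 82 were found, and on chromosome X 17.5, where 30 were found. On chromosome 7 it gave 96.1 against 78, and on chromosome 8 63.6 against 48. The rib-only peaks of chromosome 13 were dispersed, for without the 3 megabases that held the most of them, 64 of 216 Class I peaks were rib-only, or 29.6% (23.6% to 36.2%). Among those megabases, 21000001 to 22000000 held 8 rib-only of 20 Class I peaks and 23000001 to 24000000 held 6 of 26.

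Class II peaks without a nasal peak were 62.5% (59.4% to 65.5%) on chromosome 13, an interval that holds the 60.5% over all Class II peaks. On chromosome X they were 75.4% (68.8% to 81.2%), which lies above it. Chromosome X held 164 nasal and 292 rib peaks, far fewer than chromosome 13 with 734 and 1276. On chromosome X the rib-only peaks had a median distance of 57.8 kb to a nasal peak and on chromosome 13 one of 24.2 kb.

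**Figure D5:**
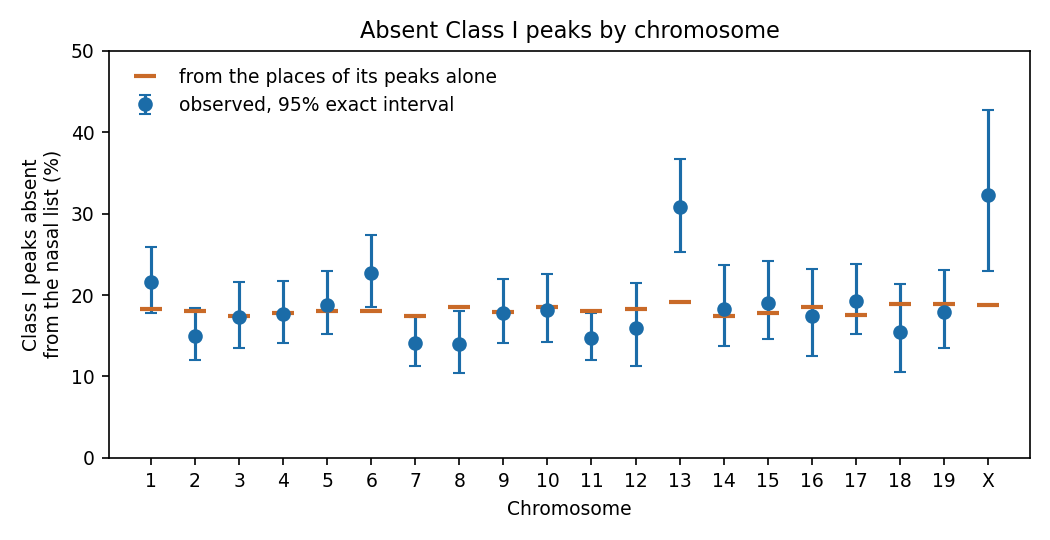
Share of Class I peaks absent from the nasal list (vertical axis, percent) for each chromosome (horizontal axis), as points with 95% exact binomial intervals, and the share that the places of its peaks in the rib list alone would give (dashes). Chromosomes 13 and X stand highest, at 30.8% and 32.3%, above dashes at 19.1% and 18.8%.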

How the data were processed

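ChIP-seq for Sox9 was compared between rib and nasal septum chondrocytes, with 1 library each. Cells were fixed in 1% formaldehyde for 10 minutes and libraries amplified by 18 PCR cycles, per the labels' protocols. The authors deposited 4 peak lists holding start and end positions in bp, with no other value, on mm9 per the submitters' processing notes. The sources used here do not name the aligner, peak caller, control library or class definition. Names of the deposited tables have an FDR tag of 1 without a unit, and the whole rib table is named as unfiltered. The last Class I line was separated by spaces, and its first fields were read. The other 11 libraries were not analysed here.

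Each peak's distance to the nearest peak of another list was taken edge to edge, and absence meant more than 1000 bp. The distance routine recovered 5000 of 5000 planted gaps on simulated data and differed from bedtools 2.31.1 for 0 of 6794 Class I peaks. Places are line numbers in the whole rib list. Bins split that list by place into 10 equal parts. Windows of 100 kb took peaks by their centres. Shares carry Clopper-Pearson intervals. Regions were named by fixed rules, the 10 earliest, 5 farthest, 3 widest, 3 narrowest and 3 nearest the limit, all runs of at least 3, and the 5 fullest windows. The series of consecutive peaks, the megabases and the chromosomes were singled out after their values were seen. The members and lists were chosen with earlier results of these data known. Figures used matplotlib 3.10.9, and values came from scipy 1.17.1, pandas 2.3.3 and numpy 2.4.6 under Python 3.11.15.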

Additional observations from a re-analysis of the deposited data

How the results depend on the processing

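Of 46 recomputed values, 24 stayed within the interval of the reported value or within 1.5 times a reported count. The rib-only share of Class I was 31.2% when sharing a base alone counted as presence, 20.8% at 500 bp, 16.3% at 2000 bp, 14.1% at 5000 bp and 12.4% at 10000 bp. It was 19.3% with Class I peaks within 1000 bp merged, 9.16% in the first 50% of the rib list and 42.4% against the first 50% of the nasal list. With absence at 10000 bp, the median place of the other Class I peaks was 16297.5. Runs of at least 3 numbered 3 with gaps of at most 500 bp.

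The difference between rib-only and shared peaks in Class II neighbours was 2.79 points at 5 kb, 2.80 at 50 kb (-0.197 to 5.72) and -0.0639 at 1 kb (-0.900 to 1.01). Both of these last intervals hold 0. For Class I neighbours it was -8.69 points at 10 kb and -14.3 at 1 kb, 3.52 once peaks with a neighbour within 1 kb were left out and 1.25 (-0.891 to 3.64) once those with one within 3 kb were. The cause of this change of sign was not tested. For absent Class II neighbours it was 6.87 points at 2 to 10 kb from Class I, 7.24 with weighting by place as well, 7.57 and 8.09 likewise at 3 to 10 kb, 4.42 at 25 kb and 4.42 at 50 kb. The settings for absent Class II neighbours, those that leave out peaks with a Class I neighbour within 1 or 3 kb, the weighting of chromosomes by place and the one without the chromosome 17 run were chosen after seeing the data.

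Alternatives with start sites and SOX motifs were not run, as an mm9 genome was not used. No paired analysis was possible because each tissue has 1 Sox9 library and the labels carry no replicate numbers. The unknown depth of both libraries limits every share, since a nasal site below the authors' threshold counts as absent.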
